A study of Homo sapiens with 6 samples.

Results

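PAX5, EBF1, TCF3, TCF4, POU2F2 and POU2AF1 are 6 genes for transcription factors, or for a factor's coactivator, that act in the B lineage. Open chromatin at these 6 genes, out of 19970 protein-coding genes in the RefSeq table, was taken from summit lists of 6 libraries of GM12878, a lymphoblastoid cell line made by immortalising B cells with Epstein-Barr virus. A summit is the single base at the top of an accessible site. The genes were chosen by name, and a summit was counted for a gene when it lay in the gene body or within 50 kb of either end on hg38. In all, 508 of 308461 summits lay in these 6 windows. They fell into 151 of 100513 regions, a region being a chain of summits from any library less than 250 bp apart.

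B cell commitment runs through a short cascade of factors. The E proteins, encoded by TCF3 and TCF4, bind E boxes as dimers and act with EBF1 to open B lineage genes; EBF1 and the E proteins then turn on PAX5, which activates B lineage genes and holds down genes of other lineages. POU2F2 encodes Oct-2, which binds the octamer found in immunoglobulin promoters, and POU2AF1 encodes the coactivator that octamer factors recruit in B cells. Acetylation of histone H3 at lysine 27 (H3K27ac) is a mark of active promoters and enhancers, and the total amount of it in each cell was what the sort measured.

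The 6 libraries form 3 groups of 2. In the H3K27ac high and H3K27ac low groups, cells of the line were stained for viability, fixed in 1.6% paraformaldehyde for 5 min, permeabilised, stained with an antibody to the mark and sorted by its level. The live control was made from live cells that were not sorted. Each library started from 50000 cells, treated at 37 °C for 30 min with the transposase Tn5, which cuts and tags open DNA (ATAC-seq; InTAC-seq is its form for fixed and stained cells), and crosslinks were reversed overnight in all but the live control. All groups are the same line at low passage with no genetic change. Nothing in the labels says that replicates came from separate cultures or sorts, so the spread between them may be technical. The live control differs from the sorted groups in fixation, staining, sorting and crosslink reversal together, and these cannot be told apart.

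The lists held 25754 summits in H3K27ac high replicate 1, the shortest, and 41980 to 72476 in the other 5. Sequencing depth is unknown and list length differed between libraries, so each library's regions were ranked by the score of their best summit and the best 25627, which is every region of the shortest list on chromosomes 1 to 22 and X, were kept for comparison; these are called best regions. A rank places a region within its own library's list, and ranks from lists of different length do not measure a change in accessibility. Among marker genes, a best region lay within 1 kb of a start or gene end in all 6 libraries for 2 of 6 B cell markers (MS4A1 and CD79B), for 2 of 6 T and NK cell markers (CD3E and CD8A), and for 0 of 6 myeloid and 0 of 6 erythroid markers, where 43.2% of all protein-coding genes had one. CD79A had one in 5 libraries, CD22 in 1, and CR2 in none. Some B cell markers were thus open at a gene end and others were not.

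The promoters that carry the results are printed here from RefSeq (GRCh38.p14, all on the minus strand, 250 bases before the listed start and 30 bases from it on), with the span of the summits that fell in them in capitals; 5 of the 6 genes matched the promoter table, POU2AF1 not among them. PAX5 at chr9:37034239-37034518 is shown because its own start was ranked low in most libraries, EBF1 at chr5:159097927-159098206 because the listed start had few summits, TCF4 at chr18:55321812-55322091 because this internal start was open in every library, and POU2F2 at chr19:42132417-42132696 because it held summits in every library except those of H3K27ac high.
PAX5: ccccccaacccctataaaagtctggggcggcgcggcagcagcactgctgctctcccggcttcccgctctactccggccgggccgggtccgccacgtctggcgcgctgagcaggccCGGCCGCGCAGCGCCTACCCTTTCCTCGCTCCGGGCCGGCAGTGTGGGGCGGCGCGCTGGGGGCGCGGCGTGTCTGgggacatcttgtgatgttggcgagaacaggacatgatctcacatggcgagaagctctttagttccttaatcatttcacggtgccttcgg
EBF1: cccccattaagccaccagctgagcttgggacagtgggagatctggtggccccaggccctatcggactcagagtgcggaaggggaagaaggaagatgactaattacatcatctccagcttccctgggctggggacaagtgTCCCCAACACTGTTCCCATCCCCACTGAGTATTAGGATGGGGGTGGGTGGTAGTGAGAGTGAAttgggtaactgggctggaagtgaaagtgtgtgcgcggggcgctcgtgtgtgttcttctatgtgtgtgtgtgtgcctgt
TCF4: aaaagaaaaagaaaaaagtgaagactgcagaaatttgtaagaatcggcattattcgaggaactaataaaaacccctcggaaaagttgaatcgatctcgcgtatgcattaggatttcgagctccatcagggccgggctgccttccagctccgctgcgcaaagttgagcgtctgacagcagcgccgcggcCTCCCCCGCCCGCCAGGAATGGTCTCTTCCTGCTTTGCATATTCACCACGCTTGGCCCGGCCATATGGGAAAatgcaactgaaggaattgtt
POU2F2: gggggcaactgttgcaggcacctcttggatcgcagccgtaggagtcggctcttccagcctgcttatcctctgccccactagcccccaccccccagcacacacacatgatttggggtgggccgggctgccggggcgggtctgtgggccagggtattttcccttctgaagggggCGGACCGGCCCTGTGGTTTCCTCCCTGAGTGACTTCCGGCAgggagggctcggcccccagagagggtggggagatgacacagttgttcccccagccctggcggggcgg
The capitals ran from -135 to -60 relative to the start in PAX5 (4 libraries), from -111 to -49 in EBF1 (3 libraries), from -62 to 9 in TCF4 (6 libraries) and from -78 to -38 in POU2F2 (4 libraries). The PAX5 and POU2F2 sequences were each 67.1% G and C, the EBF1 sequence 56.1% and the TCF4 sequence 50.4%, against a median of 58.2% over 35116 listed promoters. The PAX5 promoter held 29 CpG and the EBF1 promoter 6, where the median was 13.

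Across the 6 windows together, the full lists held 111 and 107 summits in the live control, 39 and 82 in H3K27ac high and 77 and 92 in H3K27ac low (replicate 1, then 2, here and below). The shortest list held the fewest, and the live control, with the longest lists, the most. With equal numbers of regions kept, the windows held 41 and 42 best regions in the live control, 39 and 43 in high and 46 and 48 in low, which drew the libraries much closer. EBF1 had the most best regions in every library and PAX5, TCF3 or POU2AF1 the fewest, as the plot of counts by gene shows. Per 100 kb of window, averaged over the libraries, POU2F2 held 4.17 best regions and POU2AF1 4.07, more than 89.8% and 89.0% of protein-coding genes. EBF1 held 3.04 and TCF3 2.56, while PAX5 (1.27) and TCF4 (1.23) lay below the median of all genes, 1.60. The windows of PAX5, EBF1 and TCF4 hold no other coding gene, whereas those of TCF3, POU2F2 and POU2AF1 hold 3, 6 and 2, so their counts include the starts of neighbours.

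**Figure D1:**
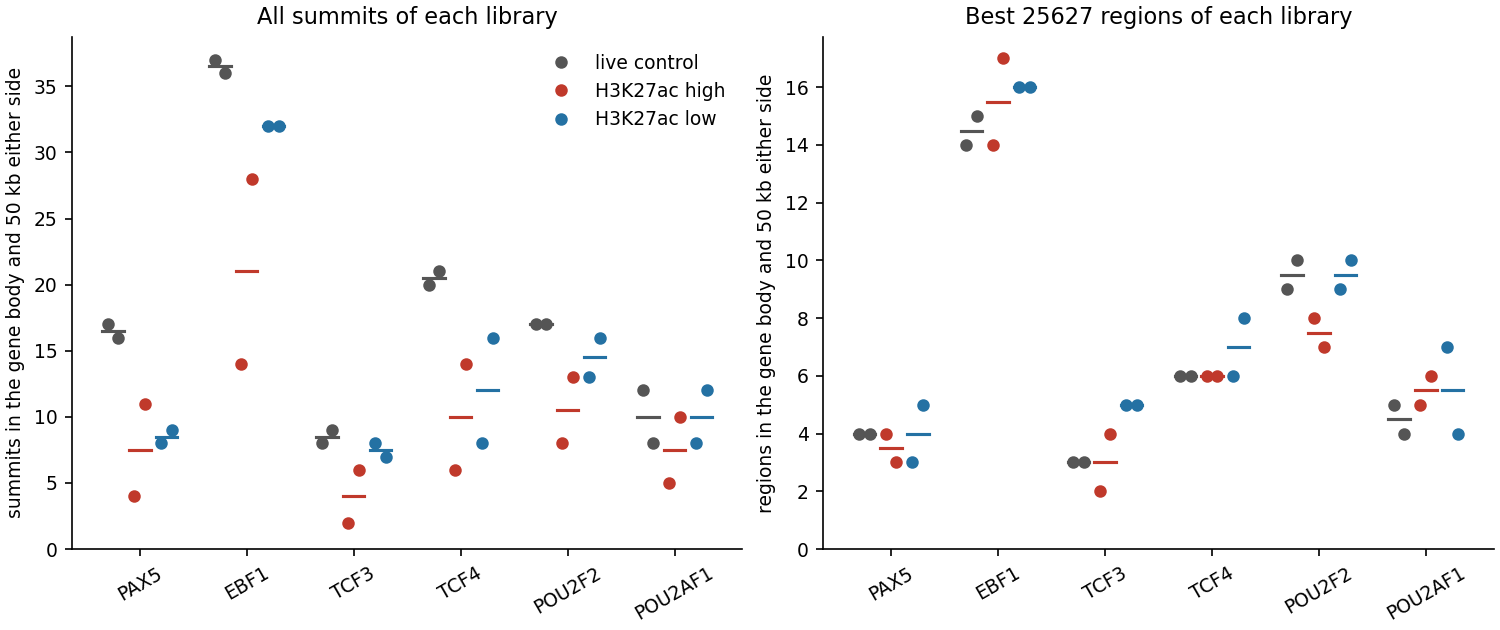
Summits (left) and best regions (right) in the gene body and 50 kb either side of each of the 6 genes; each point is 1 library and each short line the mean of a group's 2 libraries. H3K27ac high replicate 1 is the lowest point for every gene on the left, and the groups lie close together on the right, where each library has 25627 regions.

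TCF3 encodes the E proteins that start the B lineage programme (chr19:1609292-1652615). The window held 3 and 3 best regions in the live control, 2 and 4 in H3K27ac high and 5 and 5 in H3K27ac low. Both low libraries lay above both high libraries and both live libraries. The means were 3.0 ± 1.41 in high and 5.0 ± 0 in low (SD, n = 2), a difference of -2 with an exact permutation p of 0.33, the smallest that 2 libraries against 2 can give. Of the 6 best regions 3 lay at the starts of the neighbours MEX3D, MBD3 and UQCR11 and 2 at the TCF3 start. The stronger of these, chr19:1653010-1653073, ranked 9326 and 10893 in the live control, 7543 in high replicate 2 and 1968 and 3173 in low. It was not in the list of high replicate 1, which had a summit of its own at position 1652755, closer to the start, at rank 19176. A region inside the gene, chr19:1648554-1648718, was among the best regions of both low libraries only, at ranks 22465 and 23606, and was called lower down in both live libraries (53557 and 47648) and in high replicate 2 (34289).

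TCF4 encodes the other E protein described here (chr18:55222185-55635957) and is long, with 10 listed starts. Its window held 6 best regions in each live and each high library and 6 and 8 in low, and the groups overlapped. All 14 regions that any library ranked among its best lay inside the gene. Of the 10 starts 2 had a best region within 1 kb in all 6 libraries and 4 had no summit in any list; the outermost start, at the upper gene end, was among those 4. These 2 starts, at positions 55321841 and 55320935, are neighbours and share a region at chr18:55321832-55321903, which ranked 21288 and 19180 in the live control, 14194 and 16292 in high and 14218 and 19257 in low. The shared region lay 26 bp from the start at 55321841. Its summits were at -897 to -968 relative to the start at 55320935, whose listed promoter held none. That start therefore counts only through the 1 kb limit. A second region, chr18:55322476-55322498, lay 646 bp from the nearer start and ranked better in 5 libraries, at 7051 to 10226, with 18468 in high replicate 1. The printed TCF4 promoter is the one under the shared region: the summits of all 6 libraries fell within 72 bases of each other. Deeper in the gene, chr18:55268285-55268417 ranked 16295 and 22896 in the live control, 4032 and 8715 in high and 9877 and 10300 in low, so every sorted library placed it higher in its list than either live library did. The region at chr18:55283510-55283593 ranked 27912 and 6766 in the live control, 6347 and 7546 in high and 13653 and 12923 in low, with the live libraries far apart. At chr18:55249752-55249818, low ranked the site 19678 and 14740, high replicate 2 at 30357 and the live control at 17703 and 27123, and high replicate 1 did not list it.

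EBF1 encodes the early B cell factor that acts with the E proteins (chr5:158695920-159099916). It held 14 and 15 best regions in the live control, 14 and 17 in high and 16 and 16 in low; both low libraries were above both live ones, and high overlapped each of the others. Of its 23 best regions 20 lay in the gene body, and 10 were among the best of all 6 libraries. The listed start, at position 159097956, had summits in only 3 libraries, at ranks 37457 to 43773, and none among the best regions. The gene was open at its ends instead. The region past the upper end, chr5:159100340-159100468, lay 79 bp from the start of the noncoding gene LINC02202 and ranked 8680 and 11396 in the live control, 6386 and 12429 in high and 5873 and 12064 in low. The lower end, chr5:158695760-158695836, ranked 7973 and 11348 in the live control, 13590 and 13378 in high and 8175 and 6569 in low. The best placed site inside the gene, chr5:158954077-158954189, was 143823 bp from the listed start and ranked 3011 and 5327 in the live control, 1486 and 3723 in high and 5573 and 5590 in low, with no overlap between the sorted groups. Another, chr5:158842100-158842207, ranked 7856 to 13198 in all 6 libraries. The only region of the 6 windows that was among the best of both high libraries and of neither low library was also in EBF1, at chr5:159011278-159011355, with ranks 13606 and 16806 in high, 26543 and 32442 in low and 26073 and 26067 in the live control; the low and live libraries all called it, just outside their best lists in 3 of the 4.

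PAX5 encodes the factor that fixes B cell identity (chr9:36833269-37034268). It held 4 and 4 best regions in the live control, 4 and 3 in high and 3 and 5 in low, and all groups overlapped. The start itself, at position 37034268, had a summit within 1 kb in all 6 libraries, but at ranks 52886 and 49369 in the live control, 36205 in high replicate 2 and 32866 and 45221 in low; only high replicate 1, at 21984, had it among its best regions. The best regions of high replicate 1 are its full list, so any region called there counts as best. The main open sites lay away from the start. Inside the gene, chr9:37027787-37027818 was 6466 bp from the start and 143 bp from the start of the uncharacterised gene LOC105376031, and ranked 3672 and 2418 in the live control, 5809 and 4391 in high and 1681 and 2213 in low. Beyond the start, chr9:37079898-37079974 was 45668 bp away and ranked 4777 to 6368 in all 6 libraries, a narrow range. One site, chr9:36996179-36996248, was among the best of both live libraries (23223 and 20685) and of no sorted library, though high replicate 2 and both low libraries called it at 27252, 40061 and 33479.

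POU2F2, the gene of Oct-2 (chr19:42086110-42197936), held 9 and 10 best regions in the live control, 8 and 7 in high and 9 and 10 in low. Both high libraries lay below all 4 others. The means were 7.50 ± 0.71 in high and 9.50 ± 0.71 in low (SD, n = 2), a difference of -2 with an exact permutation p of 0.33, and the live control had the same mean as low. The listed start, at position 42132446, lies inside the gene. There the region chr19:42132484-42132524 ranked 34347 and 21012 in the live control and 26136 and 20909 in low, and the next region, chr19:42133183-42133223, ranked 29844 and 39645 in the live control and 17931 and 23732 in low. Neither was in either list of H3K27ac high, full length included. The list of high replicate 1 ends at rank 25627 and that of high replicate 2 at 46552. Ranks from the other libraries cannot be set against these lengths, and why the regions are absent there was not tested. A region in the gene body, chr19:42108727-42108776, was among the best of both low libraries (22082 and 16984) and both live libraries (8253 and 11779), while high replicate 2 placed it at 26728 and high replicate 1 did not list it. The best ranked site of the 6 windows was at the start of the neighbour ZNF574, chr19:42075993-42076035, with ranks 148 and 75 in the live control, 1724 and 864 in high and 223 and 223 in low. The region at the GSK3A start, chr19:42242748-42243168, ranked 3516 to 5890.

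POU2AF1, the gene of the octamer coactivator (chr11:111352255-111379275), held 5 and 4 best regions in the live control, 5 and 6 in high and 7 and 4 in low, with all groups overlapping. Its upper gene end, chr11:111379324-111379565, was among the best regions of every library, at ranks 13692 and 16379 in the live control, 11738 and 12858 in high and 12925 and 13933 in low; both high libraries ranked it slightly better than both low ones, by less than the spread between the live libraries. Of its 8 best regions 7 lay above the gene, at higher coordinates, and 6 of those inside the neighbour BTG4. At chr11:111417273-111417306 the ranks were 11929 and 11172 in the live control, 7987 and 8143 in high and 9848 and 8782 in low. At chr11:111410089-111410149 they were 10368 and 9486 in the live control, 14923 and 15342 in high and 17739 and 23779 in low. These sites, both in BTG4, thus ran in opposite order between sorted and live libraries.

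**Figure D2:**
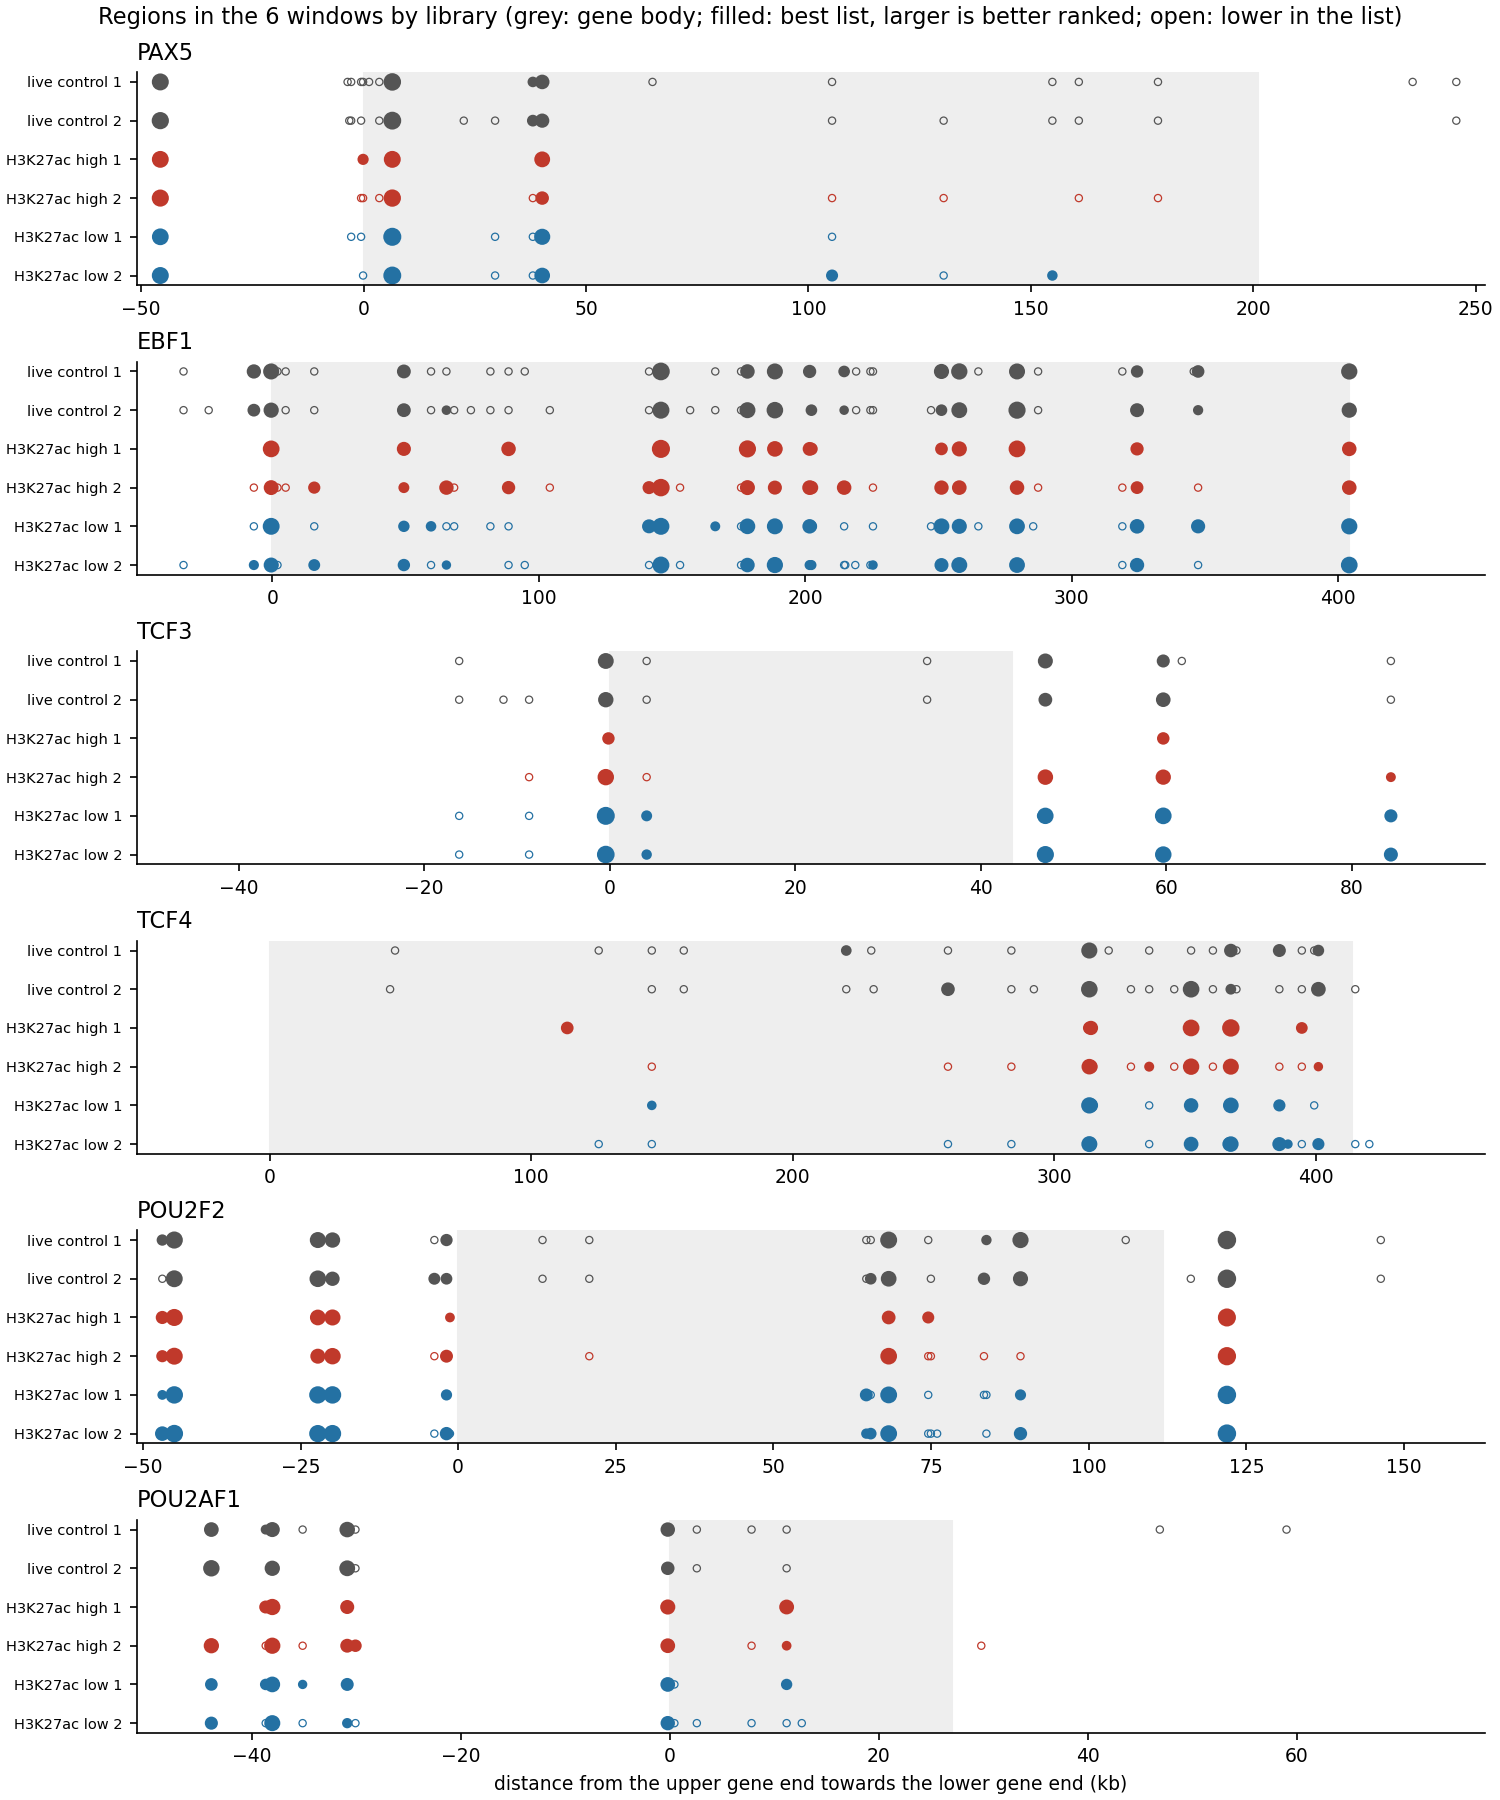
Regions of each window by library, placed by their distance in kb from the gene end with the higher coordinate (0) towards the other end; the gene body is grey, filled points are best regions, larger where better ranked, and open points lie lower in the list. The site just inside the PAX5 gene and the outermost PAX5 site on the left are filled in all 6 rows. So are the regions near the internal TCF4 start at position 55321841, while the upper end of TCF4 has no point in any row.

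Cells with high and low H3K27ac were compared to ask whether the amount of the mark in a cell goes with accessibility at these genes. Of the 6 genes 0 had more best regions in both high libraries than in both low libraries, and 2, TCF3 and POU2F2, had fewer. Over 17236 protein-coding genes with a best region in these libraries, 4.80% had more and 12.1% fewer in the same sense. Both genes are on chromosome 19, where 32.7% of 1276 gene windows had fewer. With the best 12813 regions of each library in place of 25627, the counts of both genes overlapped between groups (differences of -1.5 and -0.5), and with the full lists those of POU2F2 overlapped too (-4). For TCF3 the difference was -1 without high replicate 1 and -3 without high replicate 2. Summed over the 6 genes, high held 41 ± 2.83 and low 47 ± 1.41 best regions (SD, n = 2), a difference of -6. When high replicate 1 was left out and the other lists were lengthened to 41828 regions, the difference was -1 and the groups overlapped.

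By rank, 67 regions were among the best of a sorted library. Of these, 18 ranked better in both low than in both high libraries (26.9%), and 8 the other way (11.9%). A library without the region among its best regions counted as ranking it last, even where it called the region lower down. Over all 37575 such regions the shares were 18.0% and 15.5%. The genes on chromosome 19, TCF3 and POU2F2, gave the largest shares to low. No such share was taken for the other chromosomes. TCF3 gave 5 of 6 and POU2F2 7 of 12 to low, and neither gave any to high; on chromosome 19 as a whole 55.1% of 1355 regions ranked better in both low libraries. POU2AF1 gave 3 of 8 to high and 0 to low, EBF1 3 of 23 to each, TCF4 2 of 12 to each and PAX5 1 of 6 to low. In TCF3 the 5 were the start, the site in the gene body and the starts of MEX3D, MBD3 and UQCR11, so neighbours ranked in the same order as TCF3 itself. The 7 of POU2F2 likewise included regions at the starts of ZNF574, DEDD2 and GSK3A, and the others lay in the gene body. The 3 of POU2AF1 were its upper gene end and the sites in BTG4 described above.

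**Figure D3:**
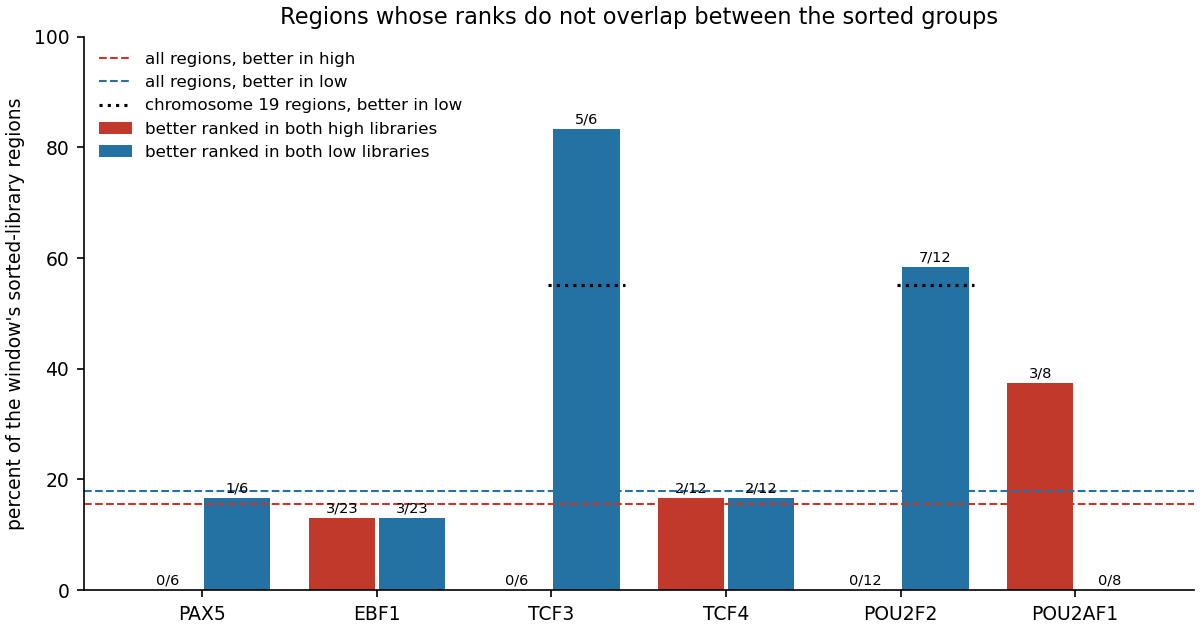
Share of each window's regions (those among the best of a sorted library) that ranked better in both H3K27ac high libraries (red) or in both low libraries (blue), with counts above the bars; dashed lines give the shares over all regions, 15.5% and 18.0%, and dotted lines the low share on chromosome 19, 55.1%. TCF3 and POU2F2, both on chromosome 19, have the tallest blue bars, and POU2AF1 has the tallest red bar.

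Against the live control, 0 of the 6 genes had more best regions in all 4 sorted libraries and 0 had fewer, where 2.75% and 4.79% of 17544 genes did. The sum over the genes was 44.0 ± 3.92 in the sorted libraries (SD, n = 4) and 41.5 ± 0.71 in the live control (SD, n = 2), a difference of 2.5 with overlapping libraries. Without high replicate 1 it was 4.17 and the groups no longer overlapped, and without low replicate 2 it was 1.17. At best, 4 libraries against 2 can give an exact permutation p of 0.13. With each sorted group set apart, TCF3 and EBF1 had more in both low libraries than in the live control (9.26% of genes did) by 2 and 1.5, and 0 of the 6 had fewer (9.03%). POU2F2 had fewer in both high libraries than in the live control (14.1% of genes), by 2, and 0 of the 6 had more (6.74%). These comparisons share the live control libraries. By rank, 3 of the 73 regions that were among the best of any library ranked better in all sorted than in both live libraries (4.11%, against 8.24% of 41407 regions), and 5 ranked better in both live libraries (6.85%, against 11.7%).

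The genes also differed at their starts and ends. A best region lay within 1 kb of a listed start or a gene end in all 6 libraries for EBF1, TCF3, TCF4 and POU2AF1, 4 of 6 genes, where 43.2% of protein-coding genes had one. PAX5 had it in high replicate 1 only, whose best list is its full list, although all 6 libraries had a summit within 1 kb of the start. POU2F2 had it in live replicate 2 and both low libraries. Summits near the TCF3 start lay at -441 and -458 in the live control, -423 in high replicate 2 and -418 and -395 in low, while that of high replicate 1 was at -140. Those near the PAX5 start lay at -135 and -424 in the live control, -133 and -120 in high and -417 and -60 in low, split between 2 regions. With the best 12813 regions of each library, 1 of the 6 genes was open in all 6 libraries. The share over all genes was not taken at that length, so the lower count does not set these genes apart.

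**Figure D4:**
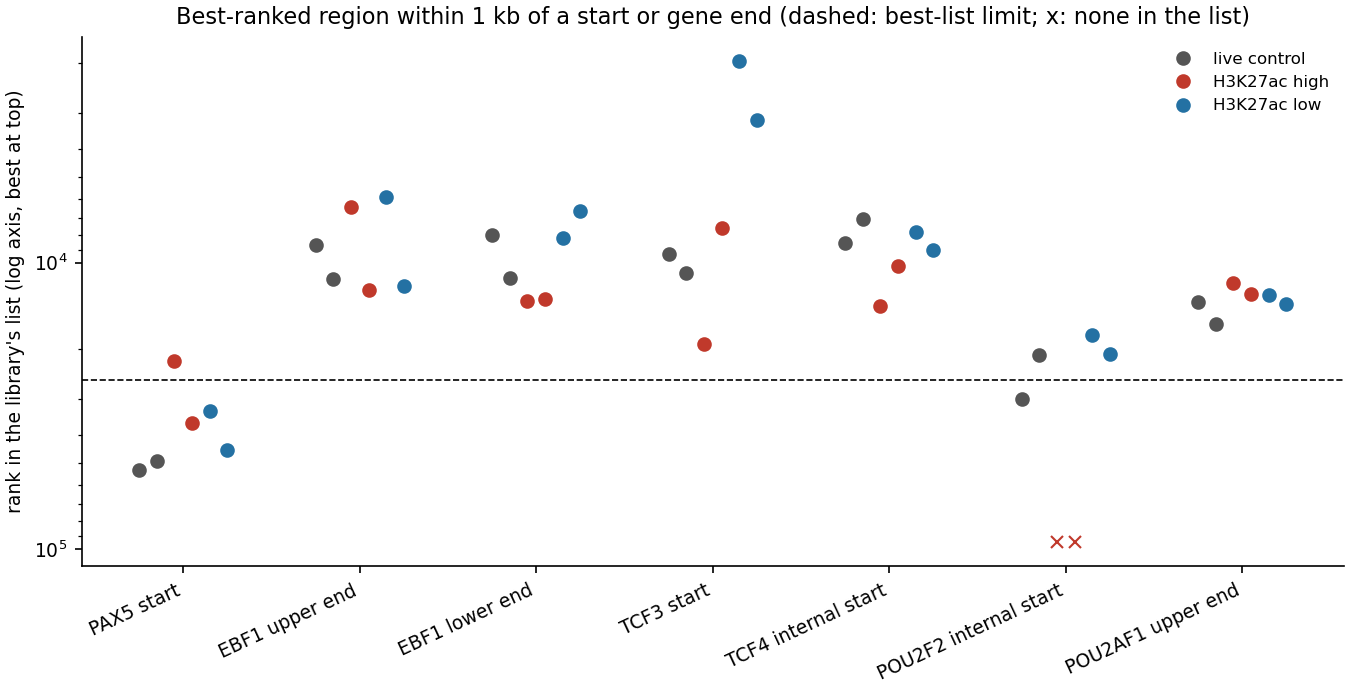
Rank of the best placed region within 1 kb of a start or gene end in each library, on a log axis with the best rank at the top; each point is 1 library, crosses mark libraries with no region there and the dashed line marks rank 25627. TCF3 in low holds the best ranks (1968 and 3173), the PAX5 start lies below the line in 5 of 6 libraries, and POU2F2 has crosses in both H3K27ac high libraries.

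Most best regions of these windows were not at starts. Shares over all regions were not taken for the places below, so they do not set these genes apart. Of the 73 best regions 10 lay within 1 kb of the gene's own start or end, 10 within 1 kb of another gene's listed start and 53 farther from any of these. Starts missing from the promoter table were not measured. The 53, and the 13 given below, may therefore include regions near such starts. The gene's own body held 48, and some of the others lay inside neighbouring genes. In all, 25 regions were among the best of every library (34.2%, against 35.2% of all regions), of which 5 were at the gene's own start or end, 7 at another gene's start and 13 farther away. EBF1 held 10 of these, POU2F2 5 and PAX5, TCF4 and POU2AF1 3 each, and TCF3 held 1, the start of MBD3. Of the rest, 1 region was in high only (1.49%, against 2.61%), 4 in low only (5.97%, against 3.63%), 0 in sorted libraries only (against 1.42%) and 1 in live libraries only (1.37%, against 2.18%), where "only" means the best lists of every library of that group and of no library it was set against. A further 23 were among the best of 1 library alone, with no share over all regions taken. With 1 library left out, the count in low only ran from 4 to 11 and that in high only from 1 to 8. The rule asks less of a region when a library is left out, so these counts lean upward. In the full lists, 30 of the 151 regions were called in every library, again with no share over all regions taken.

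The letters of 12 motifs were searched on both strands of the 14 listed promoters of these genes. The octamer ATTTGCAT was in 0 of them and in 1.74% of all 35116 promoters. The E boxes CAGGTG and CAGCTG were in 19.2% and 16.4% of all promoters, and in 0 and 1 of these (EBF1). The EBF motif CCCNNGGG was in 1 (TCF4; 18.2% of all), the ETS motif GGAAGT in EBF1 and POU2F2 (21.8%) and the GC box GGGCGG in PAX5, POU2F2, TCF3 and TCF4 (44.1%). The IRF motif GAANNGAAA was in EBF1, POU2F2 and 3 TCF4 promoters (7.28%), the CCAAT box CCAAT in EBF1 and TCF4 (33.6%) and the TATA box TATAAA in PAX5 and TCF4 (11.2%). The AP-1 motif TGANTCA was in 1 TCF4 promoter (7.35%), and the NF-kB motif GGNNTTTCC (5.92%) and the CRE TGACGTCA (1.85%) were in none. In POU2F2 the ETS letters began at -47, inside the capitals printed above, and the IRF letters at -96, outside them. In EBF1 the ETS letters at -33 and the IRF letters at -32 overlap. The PAX5 GC boxes began at -226 and -89, the second of them inside the capitals, and the TCF3 promoter held 9, some of which overlap, more than any other of the 14. A match says only that the letters are there.

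The genes around these factors in the pathway were described the same way, from 4 lists. A best region lay within 1 kb of a start or end in all 6 libraries for 4 of 13 upstream and parallel regulators (FOXO1, MEF2C, CBFB and MYC), for 9 of 12 partners, inhibitors and later B factors, for 7 of 19 B lineage targets and for 2 of 9 genes of other lineages (NOTCH1 and GATA3). Against the 43.2% of all genes, the partners' share was 75.0%, and those of the targets (36.8%), the upstream regulators (30.8%) and the genes of other lineages (22.2%) were lower. The partners included the E protein TCF12, the ID proteins ID1, ID2 and ID3, which block E proteins from binding DNA, and the octamer factor POU2F1. Between sorted groups, MEF2C, a factor of lymphoid development, had 12 and 11 best regions in high and 9 and 8 in low. ID3 had 5 and 5 in high and 8 and 7 in low. CD79A, a signalling chain of the B cell receptor and a target of EBF1, had 2 and 3 in high and 4 and 5 in low. CD22, a B cell receptor inhibitor, had 0 and 0 in high and 1 and 2 in low, and TCF7, a T lineage factor, 5 and 6 in high and 7 and 8 in low. By list, 3 of 13 upstream regulators had more in both high libraries and 2 fewer, with 1 and 3 of 12 partners, 0 and 3 of 19 targets and 0 and 2 of 9 genes of other lineages, where 4.80% of all genes had more and 12.1% fewer. These shares are over all chromosomes, and on chromosome 19 32.7% of 1276 gene windows had fewer. The list genes were not split by chromosome, so their counts are not read as a trait of the lists. The median difference was 0 for the upstream list and for all genes, and -0.5 for the other 3 lists and -0.75 for the 6 factors. Against the live control, BLK, a B cell kinase, had 8 and 9 best regions in the live control and 10, 10, 11 and 10 in the sorted libraries, and CEBPA, a myeloid factor, 2 and 2 in the live control and 0, 1, 1 and 1 in the sorted ones. No other gene of the 4 lists was free of overlap in that comparison, so 1 of the 53 list genes had more and 1 fewer. Of all genes 2.75% had more and 4.79% fewer, so these counts do not set the lists apart.

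Genes with windows of similar length whose counts ran most like those of each gene were found by the sum of absolute differences in best regions over the 6 libraries. TRAK1 matched PAX5 exactly, with EML1 at 1 and ATAD2B at 2. For TCF3, ITM2C, SYT11 and ZNF839 each differed by 1, and for TCF4, PLCL1 differed by 1 and SLC35F3 and TIAM1 by 3. For POU2F2, RGS3 and VDAC1 differed by 3 and USP3 by 4. The overlapping genes CKLF, CKLF-CMTM1 and CMTM1 each differed from POU2AF1 by 2, and 8 candidates in all were as close. EBF1 had no such close match: ARHGAP10 and TRIO differed by 9 and NCALD by 10, among 449 genes with a window of its length. The sums were not scaled to the counts, which were largest for EBF1. The number of candidates also differed, from 428 for TCF4 to 12991 for POU2AF1, so the sums do not rank the genes by how distinctive they are.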

How the data were processed

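The 6 genes and the gene lists were chosen with earlier results of these data known. Groups and replicate numbers came from sample titles; the staining protocol writes the mark as H3K37ac, read here as H3K27ac. Per the submitters' processing notes the authors' tools were Bowtie2, MACS2, Picard, FastQC and bcl2fastq, on builds hg38 and hg19; the deposited lists are on hg38 by their contig names. Tn5 shift, duplicate removal, cut-offs and blacklists are not stated in the sources used here. The deposited lists, made per library, hold summit positions and the authors' score, read as a −log10 p-value or q-value and used only to rank within a list; the lowest score was 2.02. The 501 summits off chromosomes 1 to 22 and X were left out.

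Regions were chained at 250 bp (median width 43 bp) and equal numbers kept; ties were ordered at random with a fixed seed. Exact permutation tests over libraries (two-sided, SciPy 1.17.1) were run per gene; no p is given for sums over the genes. Named genes were all 6, plus up to 6 list genes per comparison with the largest differences of means among those whose libraries did not overlap; 1 of these is not reported here. Named regions were those at starts and ends, the 2 elsewhere with the best worst rank over the 6 libraries and up to 3 of each group pattern; the 3 most similar genes were those within 20% of the window length. All 53 list genes matched RefSeq. Code was Python 3.11.15 with pandas 2.3.3 and matplotlib 3.10.9, and was tested on simulated lists. Alternatives were list length, chaining distance, window size, gene end distance, a replicate block and each library left out. Same-numbered libraries deviated together with correlations of 0.10 (high and low), 0.0095 (high and live) and 0.024 (low and live) over 19970 genes.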

Additional observations from a re-analysis of the deposited data

How the results depend on the processing

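The difference between high and low, summed over the 6 genes, was -6; it was -24 with full lists, -3 with the best 12813 regions of each library, -1 without H3K27ac high replicate 1 and with lists lengthened to 41828 regions (an alternative chosen after seeing the data), and -8 to -4 with 1 library left out at the same length. The sorted minus live difference was 2.5 with overlapping libraries. It was -36 with full lists and 13.2 in the lengthened lists, both without overlap, and -0.5 with the best 12813 regions. With 1 library left out at the same length it ran from 1.17 to 4.17. At 4.17, without H3K27ac high replicate 1, the groups did not overlap. Regions in all libraries numbered 25, and 8 with the best 12813 regions, 14 in the gene bodies alone and 44 in the lengthened lists. Regions in high only numbered 1, and 0 with full lists, 13 in the lengthened lists and 1 to 8 with 1 library left out. Those in low only numbered 4, and 9 with full lists, 1 with the best 12813 regions, 8 in the lengthened lists and 4 to 11 with 1 library left out. Those in sorted libraries only numbered 0, and 1 with the best 12813 regions, 4 in the lengthened lists and 0 to 2 with 1 library left out. Those in live libraries only numbered 1, and 9 with full lists, 2 with the best 12813 regions, 2 with chaining at 1000 bp, 3 in windows of 100 kb either side and 1 to 4 with 1 library left out. Genes open at a start or end in all libraries numbered 4, and 1 with the best 12813 regions, where no share over all genes was taken. The lengthened lists change 2 choices at once, the library left out and the number kept. With 1 library left out, a group pattern asks less of a region, so its count leans upward. Apart from that, the cause of these shifts was not tested.

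With the replicate number as a replicate block, the paired differences were -6 and 2.5, the same means; 2 pairs can give an exact p of 0.5 at best. The libraries share only a number. TCF3 held fewer regions in high than in low, without overlap, in 13 of 14 alternatives and POU2F2 in 11 of 14. Groups that do not overlap stay apart when 1 library is left out at the same length or when libraries are paired. Those alternatives could not change the call, so they are no check of it. Depth is unknown, and the short list of H3K27ac high replicate 1 limits what can be called absent there.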
